A study of Mus musculus with 9 samples.

Results

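The intercalated disc and gap junction genes described here are 10 genes of the mouse left ventricle, namely *Gja1*, *Gja5*, *Gjc1*, *Dsp*, *Dsg2*, *Dsc2*, *Pkp2*, *Jup*, *Cdh2* and *Tjp1*. They are 10 of the 52636 genes in the count table and 10 of the 16322 genes that passed the filter on low counts, so none of them was lost to that filter. The genes were named by function, with earlier results of these data known. The sets of libraries they are compared across were chosen by a measured value, the level of *Vdac2*, with libraries 1, 5, 7 and 9 under 100 CPM (CPM, each library's counts divided by its size after TMM normalization), libraries 2, 4, 6 and 8 over 300 CPM, and library 3 shown apart. Any difference between these sets is therefore given as a description, with no test.

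All 9 libraries were made from total RNA of the left ventricle of 16-week-old C57BL6J mice, 1 library for each deposited sample. Libraries 1 to 5 are labelled VDAC2 WT and libraries 6 to 9 VDAC2 KO, a cardiac deletion in which Cre driven by the alpha myosin heavy chain promoter acts on floxed *Vdac2* alleles in cardiomyocytes, while the other cells of the ventricle keep the gene. As the study describes them, WT mice carried either the floxed alleles or Cre, so the WT label covers more than 1 genotype, and which of them each library had is not given in the sources used here. No label ties a library to a litter or states that it came from an animal of its own, so the p-values below measure the spread between these samples.

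The intercalated disc joins cardiomyocytes end to end. Its gap junctions are channels of connexins that carry current from cell to cell, its desmosomes hold the desmin filaments of neighbouring cells together, and its adherens junctions anchor the actin of the sarcomeres. In the heart the last of these merge with desmosomal proteins into the area composita, and inherited loss of desmosomal proteins is a known cause of arrhythmogenic cardiomyopathy, in which connexin 43 often leaves the disc.

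The level of *Vdac2* went against the label in several libraries. Under the WT label, libraries 2 and 4 held 366 and 365 CPM, whereas libraries 1 and 5 held 20.2 and 21.3 CPM and library 3 held 58.5 CPM. Under the KO label, libraries 7 and 9 held 20.5 and 19.1 CPM, whereas libraries 6 and 8 held 384 and 421 CPM. Each *Vdac2* set thus held 2 libraries of each label. Libraries labelled WT ran in lane 1 of the flow cell and libraries labelled KO in lane 2, *Xist* lay at 335 to 587 CPM in the latter and at or under 0.152 CPM in the former, and the Y-linked *Ddx3y* showed the converse, so label, lane and sex-linked expression cannot be told apart. Depth was 27345052 to 32469135 counts in lane 1 and 36477141 to 44673988 in lane 2, where 3 counts, taken as the floor, equal 0.0693 to 0.114 CPM, which covers counting error only. Library 3 stood apart beyond *Vdac2*: mitochondrially encoded genes took 9.07% of its counts against 16.8% to 19.2% elsewhere, and 75.1% of all genes tested lay outside the range of the other 8 libraries. The tissue label was met by its markers, since the 7 cardiomyocyte markers summed to between 130796 and 164118 CPM in the 8 libraries and to 52474 CPM in library 3. Of the 4 atrial markers, *Myl7* stayed at or under 1.13 CPM, *Sln* reached at most 2 counts and *Bmp10* at most 8 counts in any library, and *Myl4* read 1.87 to 2.43 CPM in the Vdac2-low libraries, 1.59 to 1.86 CPM in the Vdac2-high ones, without overlap, and 2.99 CPM in library 3.

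Per kilobase of annotated exons, desmoplakin led the 10 genes. On an RPKM scale (CPM per kilobase of all annotated exons, mean ± SD of the 8 libraries without library 3), *Dsp* stood at 160 ± 17.4, *Gja1* at 53.2 ± 5.32, *Cdh2* at 44.2 ± 3.54 and *Pkp2* at 38.6 ± 4.45. *Tjp1* at 16.0 ± 1.67, *Dsc2* at 15.3 ± 2.11, *Dsg2* at 14.0 ± 1.26 and *Jup* at 12.2 ± 1.04 made a lower tier. *Gjc1* at 4.27 ± 0.351 and *Gja5* at 0.962 ± 0.120 came last. The ranges over libraries did not overlap between *Dsp* and *Gja1*, between *Pkp2* and *Tjp1*, between *Jup* and *Gjc1*, or between *Gjc1* and *Gja5*. All other neighbours in this order overlapped and are not ranked. The length counts every annotated exon of a gene, 9659 bases for *Dsp* and 10257 for *Gja1*. The length of the transcripts present was not measured, so the order holds on this scale only. On it, connexin 43 transcript exceeded connexin 45 and connexin 40 transcript in every library.

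Promoter sequence is shown for *Gja1*, which was higher in every Vdac2-low library, and for *Dsp* and *Tjp1*, which were lower in every one, a choice made with those values known. RefSeq windows of 300 bases around the start of transcription (build GRCm38.p6) matched 5 of the 10 genes. They are given in the direction of transcription. The *Tjp1* window lies inside the gene span of GENCODE M21 given below, at an internal start, whereas the *Gja1* and *Dsp* windows lie at the 5′ end of theirs. Capitals mark every match, on either strand, to 3 motifs: TGANTCA, bound by AP-1, GGGCGG, the GC box bound by Sp1 (CCGCCC on the other strand), and AGGTGT, the core bound by T-box factors.
Gja1, chr10:56377050-56377349, plus strand: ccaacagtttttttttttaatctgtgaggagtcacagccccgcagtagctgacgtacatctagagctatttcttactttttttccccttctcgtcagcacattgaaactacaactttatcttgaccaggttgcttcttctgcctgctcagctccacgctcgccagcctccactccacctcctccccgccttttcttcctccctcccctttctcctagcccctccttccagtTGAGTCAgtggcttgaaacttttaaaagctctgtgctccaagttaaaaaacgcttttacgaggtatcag
Dsp, chr13:38151044-38151343, plus strand: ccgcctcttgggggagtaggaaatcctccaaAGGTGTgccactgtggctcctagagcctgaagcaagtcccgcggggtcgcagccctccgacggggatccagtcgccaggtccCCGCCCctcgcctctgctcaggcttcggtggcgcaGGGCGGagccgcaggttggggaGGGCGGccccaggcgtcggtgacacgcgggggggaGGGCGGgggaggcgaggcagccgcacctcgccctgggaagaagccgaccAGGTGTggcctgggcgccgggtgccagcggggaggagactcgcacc
Tjp1, chr7:65371195-65371494, minus strand: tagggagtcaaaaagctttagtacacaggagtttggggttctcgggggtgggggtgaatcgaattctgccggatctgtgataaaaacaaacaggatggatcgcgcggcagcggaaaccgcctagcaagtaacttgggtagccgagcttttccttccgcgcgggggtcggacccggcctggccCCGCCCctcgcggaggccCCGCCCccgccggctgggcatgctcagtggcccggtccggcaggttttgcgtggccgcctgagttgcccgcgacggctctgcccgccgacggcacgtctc
The *Gja1* window held 1 AP-1 match, no GC box and no T-box core, at 47.7% GC. The *Dsp* window held 4 GC boxes and 2 T-box cores at 73% GC, and the *Tjp1* window 2 GC boxes at 65.3% GC. The 2 matched windows not printed belong to genes that overlapped between the pooled sets, *Gja5* with 1 GC box and *Jup* with 2 GC boxes and 1 T-box core. Both of these genes also had lower means in the Vdac2-low libraries, at -0.03 and -0.15 on the log2 scale. The direction of *Gja5* did not hold across lanes, at +0.16 in lane 1 and -0.23 in lane 2. A link between motifs and differences was not tested. Over 32851 RefSeq windows of that length, TGANTCA occurred in 7.81%, GGGCGG in 35.7% and AGGTGT in 13.7%. These matches are a description of the letters and not of binding. *Gjc1*, *Dsg2*, *Dsc2*, *Pkp2* and *Cdh2* had no entry.

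Between the *Vdac2* sets, *Gja1* and *Dsc2* were higher in every Vdac2-low library than in any Vdac2-high library, *Dsp* and *Tjp1* were lower in every one, and the other 6 genes overlapped. The differences ran from -0.23 to +0.31 on the log2 scale. Of all genes tested, 12.1% did not overlap between the sets, 7.16% being higher and 4.93% lower in all Vdac2-low libraries. Since the comparison was part of how these genes came to be described, nothing is read from 4 of 10 against that background. By mean, 5 genes were higher and 5 lower, of which *Gja5*, *Jup* and *Cdh2* turned higher when libraries were scaled to cardiomyocyte markers, and *Gja5* and *Cdh2* also with no normalization factor. The median difference over the 10 genes was 0.0079 on the log2(CPM + 0.5) scale against 0.00080 over all genes, and the median size regardless of sign was 0.157 against 0.109. In a whole ventricle, fewer cells of a type and less RNA per cell cannot be told apart.

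**Figure D1:**
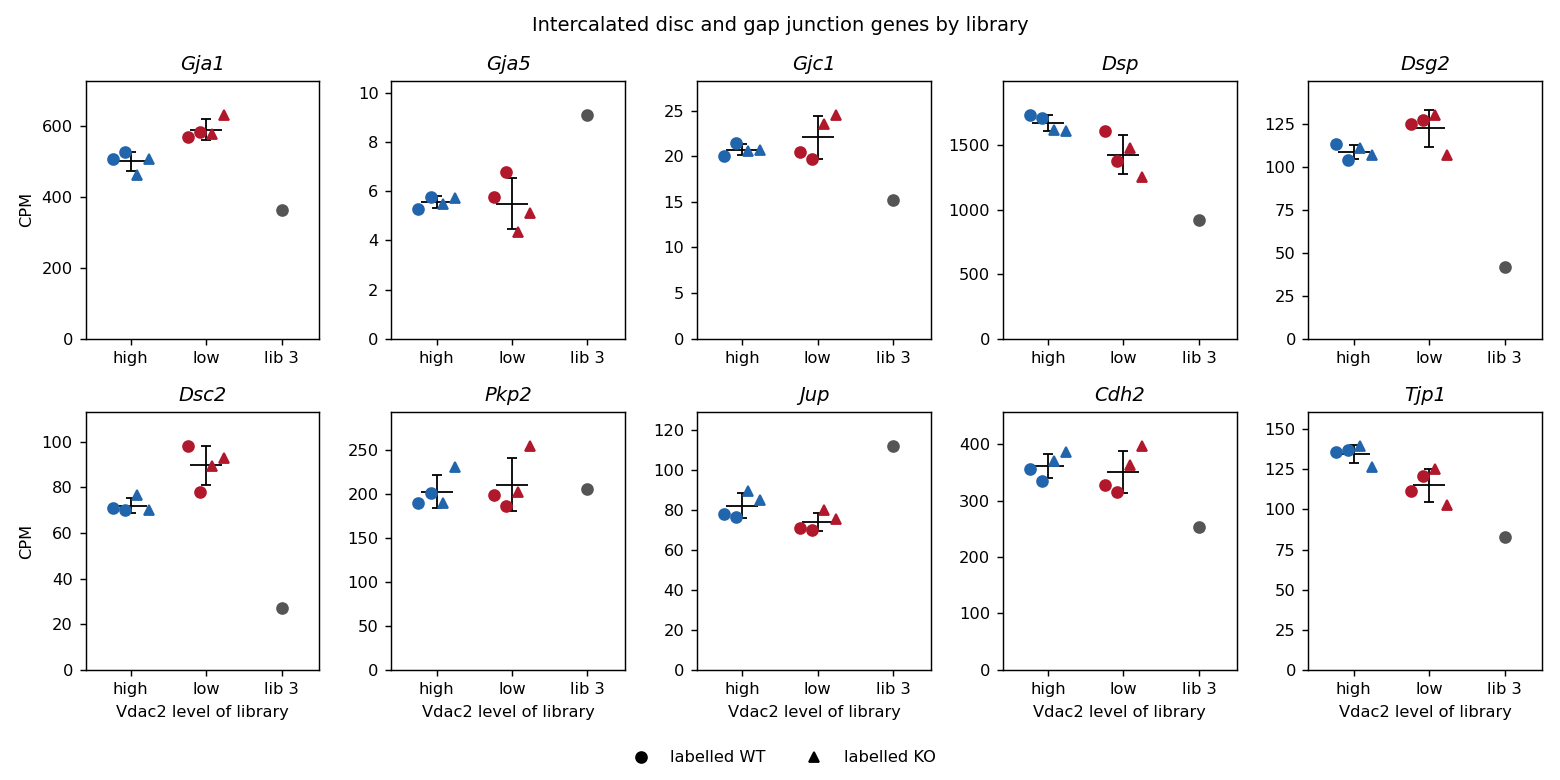
Level of each gene (CPM, linear axis from 0) in libraries with high *Vdac2* (blue), with low *Vdac2* (red) and in library 3 (grey). Circles are libraries labelled WT and triangles labelled KO, bars are mean ± SD of 4 libraries. *Gja1* and *Dsc2* lie above the Vdac2-high libraries in all 4 Vdac2-low libraries, *Dsp* and *Tjp1* below.

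Among the connexins, *Gja1* was the one that separated the sets. It encodes connexin 43, the main gap junction channel of ventricular muscle, and lies on chromosome 10 of GRCm38 from 56377330 to 56402513 (ENSMUSG00000050953). Its level was 569, 583, 577 and 633 CPM in libraries 1, 5, 7 and 9, and 506, 527, 462 and 508 CPM in libraries 2, 4, 6 and 8. The lowest Vdac2-low library stood above the highest Vdac2-high one. The means were 591 ± 29.0 and 501 ± 27.4 CPM (SD, n = 4), a 1.18-fold step, or +0.24 on the log2 scale, against SDs of 0.07 and 0.08 within the sets. The step was +0.16 in lane 1 and +0.32 in lane 2. Library 3, at 364 CPM, fell below all others.

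*Gjc1* (connexin 45, a low-conductance channel of the nodes and of the early heart; chromosome 11, 102799579 to 102819700) overlapped between the sets. It read 20.5, 19.6, 23.6 and 24.6 CPM in the Vdac2-low libraries and 20.04, 21.5, 20.6 and 20.7 CPM in the Vdac2-high ones. The higher mean came from both libraries of lane 2, where the difference was +0.22, while in lane 1 it was -0.05. *Gja5* (connexin 40, the channel of atrium, fast conduction system and arterial endothelium; chromosome 3, 96904693 to 97077416) rested on 144 to 338 counts and was the scarcest of the 10 genes. It read 5.74, 6.77, 4.35 and 5.10 CPM in the Vdac2-low libraries against 5.27, 5.78, 5.46 and 5.74 CPM. Its difference was +0.16 in lane 1 and -0.23 in lane 2, so its direction did not hold across lanes. *Gja5* shares 165 exonic bases with *Gpr89*, a protein-coding gene on the opposite strand. The markers of arterial endothelium, which shares *Gja5*, summed to 37.7 to 49.1 CPM against 45.8 to 52.0 CPM, with 1 of 5 not overlapping, and their part in the result was not tested.

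Desmoplakin and desmocollin 2 moved in opposite directions. *Dsp* (chromosome 13, 38151294 to 38198577), which ties the desmosomal plaque to desmin filaments, read 1608, 1376, 1477 and 1253 CPM in libraries 1, 5, 7 and 9 against 1739, 1713, 1621 and 1615 CPM in libraries 2, 4, 6 and 8. The gap was narrow, since library 1 came within a few CPM of library 8. The means were 1429 ± 151 and 1672 ± 63.5 CPM (SD, n = 4), a ratio of 0.851 or -0.23 on the log2 scale, with -0.21 in lane 1 and -0.25 in lane 2. *Dsp* shares 499 exonic bases with *Gm10129* on the opposite strand, and the strand setting of the counting is not given in the sources used here.

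*Dsc2* (chromosome 18, 20030633 to 20059554) encodes desmocollin 2, a desmosomal cadherin of the heart, and had the largest difference among the 10 genes. It read 98.2, 78.0, 89.5 and 92.8 CPM in the Vdac2-low libraries and 70.9, 70.1, 76.7 and 70.3 CPM in the Vdac2-high ones. Every Vdac2-low library was higher, at means of 89.6 ± 8.55 and 72.0 ± 3.14 CPM (SD, n = 4), 1.24-fold or +0.31 on the log2 scale. The step was +0.31 in each lane.

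*Dsg2* (chromosome 18, 20558074 to 20604521) encodes desmoglein 2, the partner cadherin of desmocollin 2. It read 125, 127, 130 and 107 CPM against 113, 104, 111 and 107 CPM, and library 9 kept the sets from separating. The difference was +0.17 pooled, +0.22 in lane 1 without overlap and +0.12 in lane 2 with overlap. *Dsg2* shares 330 exonic bases with the antisense gene *Gm16090*.

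The other plaque genes overlapped between the pooled sets. *Pkp2* (chromosome 16, 16213318 to 16272712), plakophilin 2, which links the desmosomal cadherins to desmoplakin, read 199, 187, 202 and 255 CPM against 190, 201, 190 and 231 CPM. These overlapped, at +0.05, with -0.02 in lane 1 and +0.12 in lane 2. *Jup* (chromosome 11, 100368958 to 100397763), plakoglobin, the catenin found in both desmosomes and adherens junctions, read 71.3, 69.9, 80.2 and 75.4 CPM against 77.9, 76.5, 89.8 and 85.2 CPM. Pooled, its values overlapped at -0.15, but within each lane both Vdac2-low libraries lay below both Vdac2-high ones, at -0.13 and -0.17.

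At the adherens junction, *Cdh2* (N-cadherin, which joins the actin anchors of neighbouring myocytes; chromosome 18, 16588877 to 16809246) read 328, 316, 363 and 397 CPM against 357, 335, 370 and 385 CPM. Its difference of -0.05 was within the spread, with -0.10 in lane 1 and +0.01 in lane 2. *Tjp1* (ZO-1, the scaffold that binds connexin 43 at the rim of the gap junction; chromosome 7, 65296165 to 65527781) read 111, 121, 125 and 103 CPM against 136, 137, 140 and 127 CPM. Every Vdac2-low library was lower, the means being 115 ± 10.2 and 135 ± 5.69 CPM (SD, n = 4), a ratio of 0.852 or -0.23, which was -0.23 in each lane as well.

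Within single lanes, where label and sex-linked expression do not vary, 7 of the 10 genes did not overlap in lane 1 and 7 in lane 2, each time with 2 libraries against 2. Among all genes these shares were 47.9% and 37.8%. In both lanes and in the same direction it was 5 of the 10 genes, *Gja1* and *Dsc2* higher and *Dsp*, *Jup* and *Tjp1* lower, against 19.9% of all genes, and nothing is read from these counts either. The sign of the difference was shared by the lanes for 6 of the 10 genes.

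**Figure D2:**
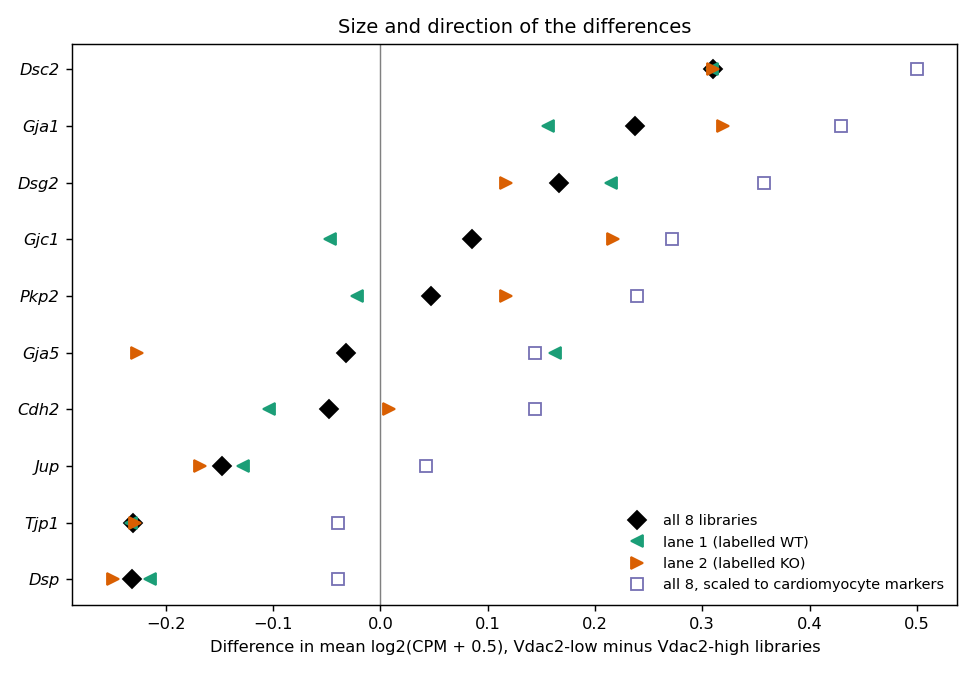
Difference in mean log2(CPM + 0.5) between Vdac2-low and Vdac2-high libraries for each gene, pooled (diamonds), in each lane (triangles) and after scaling each library to its cardiomyocyte markers (open squares). The pooled differences run from -0.23 (*Dsp*, *Tjp1*) to +0.31 (*Dsc2*), and the marker scaling moves all 10 to the right, so that *Gja5*, *Jup* and *Cdh2* change sign.

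Markers of some cell types in the ventricle differed between the sets. Summed cardiomyocyte markers were 130796 to 142428 CPM in the Vdac2-low and 149096 to 164118 CPM in the Vdac2-high libraries, a difference of -0.19, with 1 of 7 markers, *Ttn*, lower without overlap. Fibroblast markers summed to 1147 to 1330 CPM against 884 to 1148 CPM, with 2 of 6 higher, and macrophage markers to 182 to 251 CPM against 123 to 175 CPM, with 3 of 5 higher, where 12.1% of all genes tested did not overlap in either direction. Endothelial markers summed to 511 to 642 CPM against 616 to 733 CPM, with 1 of 6 lower. No marker of smooth muscle and pericytes (6 tested), epicardium (5), Schwann cells (2) or erythroid cells (4) separated the sets. When each library was instead scaled to its 7 cardiomyocyte markers, an alternative chosen after seeing the data, the median of all genes shifted by +0.17. *Ttn* carries most of this scale, at 83226 to 94003 CPM in the Vdac2-low libraries, 98397 to 103841 CPM in the Vdac2-high ones and 39927 CPM in library 3. On that scale 4 genes separated the sets, all higher in the Vdac2-low libraries (*Gja1*, *Gjc1*, *Dsg2* and *Dsc2*), while *Dsp* and *Tjp1* overlapped at -0.04 each. The share of all genes that separated on that scale was not counted, so nothing is read from this count. Relative to the shifted median, the differences were +0.26 for *Gja1*, +0.33 for *Dsc2*, -0.21 for *Dsp* and -0.21 for *Tjp1*. The part of cell composition in these differences was not tested.

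Ratios of 2 genes within a library do not depend on scaling. Where 1 gene was higher and the other lower in every Vdac2-low library, as for *Gja1* or *Dsc2* over *Dsp* or *Tjp1*, the ratio had to separate the sets, so these ratios give the size of the step without scaling and add no support to it. The counts of *Gja1* over those of *Dsp* were 0.354, 0.424, 0.391 and 0.505 in libraries 1, 5, 7 and 9, and 0.291, 0.308, 0.285 and 0.315 in libraries 2, 4, 6 and 8, a 1.38-fold step (+0.37 on the log2 scale in lane 1, +0.57 in lane 2). *Gja1* over its scaffold *Tjp1* ran from 4.603 to 6.17 in the Vdac2-low and from 3.31 to 4.01 in the Vdac2-high libraries. *Gja1* over *Cdh2* separated narrowly, at 1.59 to 1.85 against 1.25 to 1.58. *Dsc2* over *Dsp* ran from 0.0567 to 0.0740 against 0.0408 to 0.0473, a 1.46-fold step, and *Dsc2* over *Tjp1* from 0.645 to 0.905 against 0.512 to 0.555. For the desmosomal cadherins, *Dsc2* over *Dsg2* overlapped at 0.613 to 0.867 against 0.626 to 0.692, a 1.11-fold higher mean, with +0.10 on the log2 scale in lane 1 and +0.19 in lane 2, and *Jup* over *Dsp* and *Pkp2* over *Dsp* overlapped too. A ratio shows unequal change, not which of its genes changed.

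**Figure D3:**
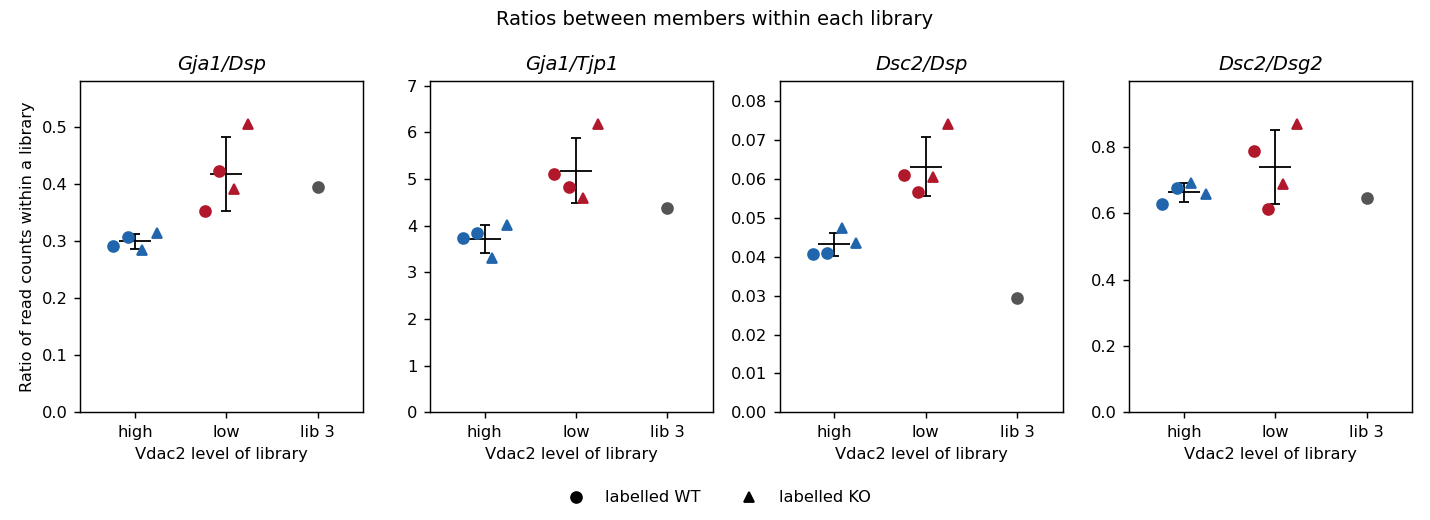
Ratio of the counts of 2 genes within each library (linear axes from 0) for libraries with high *Vdac2* (blue), low *Vdac2* (red) and library 3 (grey), with mean ± SD of 4 libraries as bars, circles for labelled WT and triangles for labelled KO. The first 3 ratios separate the sets, as the choice of genes fixes (*Gja1* over *Dsp* at 0.354 to 0.505 against 0.285 to 0.315), and *Dsc2* over *Dsg2* overlaps.

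In every gene but *Pkp2*, library 3 lay farther from the mean of the other 8 libraries than the means of the *Vdac2* sets lay from each other. These are unlike measures, 1 library against a mean of 8 and 2 means of 4 against each other. Library 3 lay below all 8 other libraries in 7 genes and above all in 2, and only *Pkp2* (207 CPM) was inside their range. Of all genes tested, 37.4% lay below and 37.7% above, so lying outside was the usual state of a gene in this library. The desmosomal cadherins were lowest relative to the others, *Dsc2* at 27.0 CPM (-1.55 on the log2 scale from the mean of the other 8) and *Dsg2* at 41.8 CPM (-1.45). *Dsp* at 922 CPM (-0.74), *Tjp1* at 83.1 CPM (-0.58), *Gja1* at 364 CPM (-0.58), *Cdh2* at 253 CPM (-0.49) and *Gjc1* at 15.2 CPM (-0.47) were low as well. *Gja5* at 9.12 CPM (+0.68) and *Jup* at 112 CPM (+0.52) were high, although both encode junction proteins. Its *Gja1* over *Dsp* ratio of 0.395 fell inside the Vdac2-low range, but its *Dsc2* over *Dsp* ratio of 0.0293 was lower than in any other library. In the same library cardiomyocyte markers summed to 52474 CPM, fibroblast markers to 2858 CPM and macrophage markers to 487 CPM, and their part in these values was not tested. Scaled to the cardiomyocyte markers, its *Dsg2* (106) and *Dsc2* (68.6) lay within the range of the other libraries, whereas *Gja1* (924), *Dsp* (2339) and *Pkp2* (524) stood above them all, so the direction of library 3 in these genes depends on the scaling. *Jup* (285) and *Gja5* (23.1) stood above the others on both scales.

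**Figure D4:**
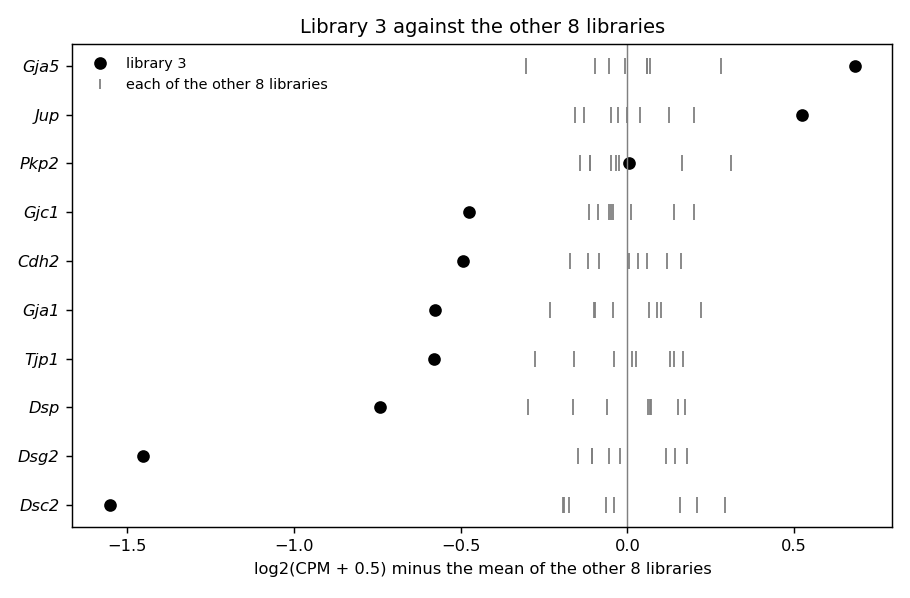
Level of each gene in library 3 (points) and in each of the other 8 libraries (ticks), as log2(CPM + 0.5) minus the mean of those 8. Library 3 lies below all ticks for 7 genes, lowest for *Dsc2* (-1.55), above them for *Gja5* and *Jup*, and among them for *Pkp2*. With cardiomyocyte marker scaling *Gja1*, *Gjc1*, *Dsp*, *Cdh2* and *Tjp1* of library 3 stand above the others instead.

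By the deposited labels, none of the 10 genes was called different between KO and WT. This is the comparison the study's design names, and it was fitted on the counts of all 9 libraries with the quasi-likelihood method of edgeR, p-values being adjusted over the 16322 genes by the Benjamini-Hochberg procedure. At an adjusted p under 0.05 it called 9 genes, or 0.0551% of those tested, and 0 of the 10, of which 0 also had an unadjusted p under 0.05 against 997 genes in all. DESeq2 called 62 genes and 0 of the 10, with 1 of the 10 at an unadjusted p under 0.05 against 1536 genes in all. *Cdh2* came nearest, with a mean of 317 ± 39.2 CPM under the WT label (5 libraries) and of 379 ± 15.4 CPM under the KO label (4 libraries, SD). Its log2 difference was +0.26 (SE 0.12), with an adjusted p = 0.679 by edgeR, a value it shared with *Gja5* and *Gjc1*. *Gja1* differed by +0.10 (SE 0.17, adjusted p = 0.84 by edgeR), from 510 ± 87.1 to 545 ± 75.3 CPM. *Dsc2* differed by +0.26 (SE 0.30, adjusted p = 0.76 by edgeR) and *Dsp* by +0.02 (SE 0.21, adjusted p = 0.98 by edgeR). With TMM scaling the one gene lower in libraries labelled KO was *Gja5*, at -0.34 (SE 0.18, adjusted p = 0.68 by edgeR). Each label holds 2 libraries of either *Vdac2* set, so this comparison does not separate low from high *Vdac2*. The study states that a WT sample was left out for poor RNA quality, without naming it, and the fit above leaves out none. Without library 3 the difference of *Gja1* was -0.01, that of *Dsp* -0.12, that of *Dsg2* -0.05 and that of *Tjp1* -0.04. *Dsc2* shrank to +0.05 and *Gja5* to -0.20, while *Cdh2* stood at +0.18. Of the 10 genes, 1, *Cdh2* itself, had an unadjusted p under 0.05, and none was called at an adjusted p by edgeR. Genes of the whole table were not counted for the fit without library 3, so nothing is read from these counts. With cardiomyocyte marker scaling *Dsc2* differed by +0.03 and *Gja5* by -0.96.

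Other genes of the disc and of connexin biology came from 5 lists of known members, none of which contains the 10 genes. Of 16 known partners in the trafficking and turnover of connexin 43, 14 overlapped between the *Vdac2* sets, 1 was higher and 1 lower in all Vdac2-low libraries, a share close to the 12.1% of all genes tested. *Dbn1*, drebrin, an actin binder that holds connexin 43 at the membrane, was the higher one, at 4.66, 4.55, 5.25 and 6.002 CPM against 3.66, 3.65, 3.87 and 3.65 CPM (+0.41 on the log2 scale). *Prkce*, protein kinase C epsilon, a kinase of connexin 43, was the lower one, at 22.3, 24.3, 24.4 and 17.8 CPM against 29.2, 29.8, 29.1 and 28.6 CPM (-0.39). In library 3 *Dbn1* read 34.5 CPM and *Prkce* 11.4 CPM.

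Of 34 further genes of the adherens junction, area composita and disc, 31 were tested, 26 overlapped, 2 were higher and 3 lower, with a median difference of -0.04. Beside the 12.1% of all genes tested that did not overlap, these counts are not a result about the list, and the genes below are given as descriptions. *Ctnna3*, alpha-T-catenin, which binds plakophilin 2 in the area composita, differed most among those that separated. It read 71.1, 80.5, 95.5 and 68.4 CPM in the Vdac2-low libraries against 115, 118, 130 and 122 CPM, and 20.3 CPM in library 3. The difference was -0.63 on the log2 scale, -0.61 in lane 1 and -0.64 in lane 2. The other alpha catenin, *Ctnna1*, overlapped at 585 to 759 CPM against 557 to 656 CPM, as did beta-catenin, *Ctnnb1*, at 544 to 616 CPM against 539 to 576 CPM, both set beside it after their values were seen. *Nrap*, which anchors terminal actin at the disc, was lower at 593 to 749 CPM against 797 to 837 CPM (-0.31). *Tmem43*, a nuclear membrane protein mutated in an inherited form of arrhythmogenic cardiomyopathy, was higher at 29.8 to 36.6 CPM against 22.7 to 27.5 CPM (+0.32). The remaining pair, outside the naming rule and named after its values were seen, was *Tmem65* (-0.27), a disc membrane protein that binds connexin 43, and *Cdh11* (+0.29), a cadherin of fibroblasts and other stromal cells.

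None of the other lists held a gene that separated the sets. All 6 tested of 20 other connexins and pannexins overlapped, among them *Gja3*, connexin 46, at 12.6 to 19.9 CPM against 17.1 to 20.7 CPM. All 5 tested of 14 other desmosomal genes overlapped, with desmin, *Des*, at 974 to 1394 CPM against 1073 to 1132 CPM. All 13 regulators of cardiac connexin genes overlapped, including *Tbx5* at 10.1 to 13.0 CPM against 10.2 to 13.0 CPM and *Nkx2-5* at 17.1 to 24.1 CPM against 17.1 to 19.5 CPM. By label, edgeR called 0 genes of the 5 lists, at a lowest adjusted p of 0.679.

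**Figure D5:**
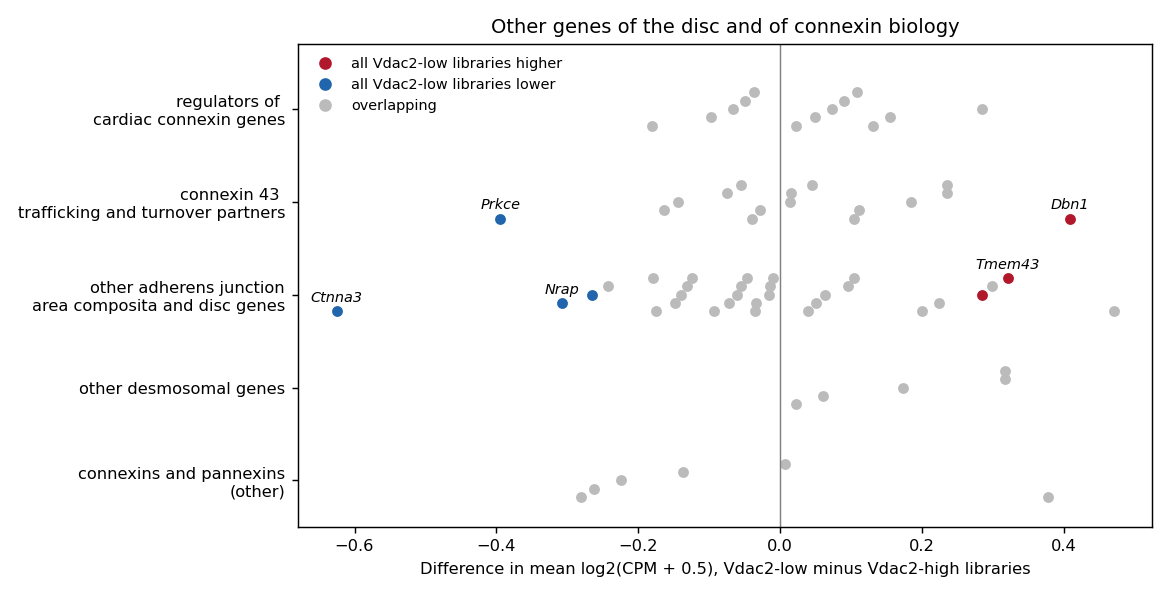
Difference in mean log2(CPM + 0.5), Vdac2-low minus Vdac2-high libraries, for each tested gene of 5 lists, 1 point a gene; red and blue points are genes whose values do not overlap between the sets. Of all points, 7 do not overlap, from *Ctnna3* (-0.63) to *Dbn1* (+0.41), and 5 of these are named on the plot.

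The genes whose level over the 8 libraries was most like that of *Dsc2*, the gene with the largest difference, were *Zfp697* (Pearson's r = 0.987 on the log2 scale), *Rp1* (0.977), *Plxnb2* (0.976), *Atp8a2* (0.972) and *Parm1* (0.967), among 8342 genes with a mean of at least 10 CPM. The 8 points fall into the *Vdac2* sets, and these genes were higher in every Vdac2-low library too, for example *Rp1* at 17.9 to 35.4 CPM against 6.81 to 12.3 CPM and *Parm1* at 108 to 167 CPM against 88.4 to 97.8 CPM. In library 3, where *Dsc2* was lowest, *Rp1* was lowest too at 2.21 CPM, whereas *Zfp697* at 67.5 CPM and *Plxnb2* at 193 CPM stood above the other 8 libraries.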

How the data were processed

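Total RNA of left ventricles was depleted of ribosomal RNA, made into 9 stranded libraries and read as 50-base single ends. The authors deposited 1 table of raw counts of reads per Ensembl gene on GRCm38, without normalization. The submitters' processing notes name STAR 2.7.2c, featureCounts 1.6.3 and DESeq2, and the annotation release and strand setting are not given in the sources used here. Symbols matched 52403 of 52636 genes, and coordinates are from GENCODE M21.

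Each column was matched to its sample by library number, and 0 columns were left out. Every pair of libraries differed by more than sampling noise (lowest chi-square per degree of freedom 7.35). edgeR 4.0.16 (R 4.3.3) gave TMM-scaled CPM and the quasi-likelihood test on the labels, with filterByExpr and Benjamini-Hochberg adjustment over all genes tested. The standard error is the absolute log2 fold change over the square root of F. The code was tested on simulated data. Values of single genes on the log2 scale, other than differences by label, are log2(CPM + 0.5), which understates the change of low genes. Differences by label are the log2 fold changes of the edgeR fit. Ratios and summed markers were put on the log2 scale with nothing added. RPKM used the union of exons in GENCODE M21. The fit by labels follows the study's 2-group design but keeps all 9 libraries, since the WT sample that the study removed for poor RNA quality is not named, and the *Vdac2* sets, made from a measured value, were given no test.

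The 10 genes and the gene lists were chosen with earlier results of these data known. Genes named from the lists were those called between labels and up to 3 in each list with the largest difference among genes that did not overlap and reached 1 CPM in 4 libraries. Alternatives were DESeq2 1.42.0, RLE or no normalization factors, no filter, mitochondrial genes left out, other pseudocounts, single lanes, library 3 added to the Vdac2-low set, each library left out and, added later, scaling to cardiomyocyte markers.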

Additional observations from a re-analysis of the deposited data

Results flagged for a closer look

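In groups of 4 or 5 libraries, the sample farthest from the others was compared with Dixon's limit. Of 40 groups tested, 4 passed it, where chance gives about 1 in 20. *Dsg2* in the libraries labelled WT had its lowest value, 41.8 CPM, in library 3, the next being 104 CPM. *Jup* in the same libraries had its highest value, 112 CPM, in library 3, the next being 77.9 CPM. *Dsg2* in the libraries labelled KO was highest in library 7, at 130 CPM against 111 CPM in the next. *Dsc2* in the Vdac2-high libraries was highest in library 6, at 76.7 CPM, the next being 70.9 CPM, and still below the lowest Vdac2-low library at 78.0 CPM.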

How the results depend on the processing

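The count of genes that separated the *Vdac2* sets, 4 of 10, was 2 with no normalization factor (*Gja1* and *Dsc2*), 2 with library 3 added to the Vdac2-low set (*Dsp* and *Tjp1*), 7 in lane 1 alone and 7 in lane 2 alone, where fewer libraries are compared, and 4 to 5 with 1 library left out. The share of all genes that separated was counted only for the main setting and within single lanes, so nothing is read from the other counts. With library 3 added, the differences of *Dsc2*, *Dsg2* and *Gjc1* turned to -0.0315, -0.14 and -0.0183, and that of *Gja5* to 0.108. Leaving out 1 library turned *Pkp2* to -0.0477 (without library 9), *Gja5* to 0.0647 (without library 7) and *Cdh2* to 0.00106 (without library 5). By label, 0 of the 10 genes were called under every alternative, with the lowest adjusted p between 0.354 and 0.900. The number of all genes called was counted only for the main fit and for DESeq2, so nothing is read from the other label counts. The direction of several label differences was not stable. With no normalization factor, where the median of all genes moved to -0.14, *Dsp* was -0.0625, *Jup* -0.13 and *Tjp1* -0.0183. With cardiomyocyte marker scaling, where that median was -0.48, *Gja1* was -0.26, *Gjc1* -0.18, *Dsp* -0.32, *Dsg2* -0.0935, *Pkp2* -0.33, *Jup* -0.60, *Cdh2* -0.14 and *Tjp1* -0.30. With 1 library left out, *Gja1* ran from -0.00944 to 0.17, *Dsp* from -0.12 to 0.0947, *Dsg2* from -0.0497 to 0.24, *Jup* from -0.0372 to 0.15 and *Tjp1* from -0.0375 to 0.15. The cause of these reversals was not tested. DESeq2 called 62 genes of the whole table against 9 by edgeR. No paired analysis was possible because the labels give the groups no shared replicate numbers. The 4 libraries in a set and the low counts of *Gja5* limit the precision.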
